A study of Homo sapiens with 6 samples.

Results

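The Wnt pathway was examined in Hep3B cells, an established line from a human hepatocellular carcinoma, by RNA-sequencing of 3 libraries with a control guide (sgControl, genotype WT) and 3 libraries in which RFX6, a winged helix transcription factor, was knocked out by CRISPR (sgRFX6). All libraries were made from total RNA of the same line, no treatment is named, and the groups differed in the guide. The study's methods describe lentiviral Cas9, puromycin selection and knockout clones grown from single cells. How many clones stood behind the 3 sgRFX6 libraries was not stated, so that the knockout and the clone cannot be told apart. The sgRFX6 count columns carry the name sg3, which is among the RFX6 guides that the study lists. No other RFX6 guide is among these libraries, so that an effect of this guide outside RFX6 cannot be told apart from the knockout either. Nothing in the labels says that the libraries came from separate cultures, and the p-values then measure only the spread between these libraries, which may be technical. The genes were all rows of the count table named WNT or FZD followed by a digit, plus 36 listed genes for co-receptors, intracellular transducers, R-spondin receptors, feedback genes, antagonists and ligand secretion. In all, 54 of 16721 rows were found: 14 WNT genes, 9 FZD genes and 31 of the listed genes. FZD10, WNT1, WNT2, WNT6, WNT7A, WNT8A, RSPO1, DKK2, DKK4, SFRP1 and SFRP2 had no row and were not analysed here.

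Wnt proteins are lipid-modified ligands that bind Frizzled receptors together with the co-receptors LRP5 and LRP6. Without a ligand, a destruction complex built on AXIN and APC phosphorylates beta-catenin through GSK3B and marks it for degradation, and with a ligand beta-catenin accumulates and joins TCF/LEF factors at target genes. Several of those targets, among them AXIN2, RNF43, ZNRF3, NKD1, NOTUM, SP5 and LGR5, feed back on the pathway. In the liver, this pathway sets the gene programme of hepatocytes around the central vein, and mutations in its components are frequent in hepatocellular carcinoma.

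The libraries held between 16730374 and 25070770 counts assigned to named genes. Levels are given as CPM, the counts relative to the library total on a scale set by edgeR's TMM factors, at which 3 counts, taken as the floor, correspond to between 0.122 and 0.189 CPM. RFX6 itself was measured at 5.64, 5.83 and 7.34 CPM in sgControl libraries 1 to 3 and at 3.43, 3.71 and 3.50 CPM after knockout. The log2 fold change of -0.82 (SE 0.26) did not pass the test (edgeR's quasi-likelihood test, Benjamini-Hochberg adjusted p = 0.142). Guides of this kind leave small insertions or deletions, which the transcript level of a gene need not show. Whether this holds for RFX6 here was not tested. The study reports a check of its knockout by real-time PCR and by western blotting. Of 9 hepatocyte markers, ALB lay between 12.9 and 32.1 CPM and AFP at only 1.58 to 2.31 CPM in sgControl, while the hepatocyte factor HNF4A was measured at 109 to 161 CPM over all libraries. Of these markers, 2 were called by edgeR: AFP rose (log2 fold change 2.82, edgeR adjusted p = 0.00254) and FGB, a fibrinogen chain, fell (-2.45, edgeR adjusted p = 0.00417) in sgRFX6. DESeq2 called 3 of them (1 higher) and limma 6 (4 higher). Of all genes tested, edgeR called 3.74%, DESeq2 6.97% and limma 31.1%. The groups did not overlap for 5 of the 9, 2 higher and 3 lower in sgRFX6, beside 23.1% of all genes. The summed level of the list lay between 259 and 305 CPM in sgControl and between 204 and 220 CPM in sgRFX6, lower in every knockout library. The sum does not describe the single markers: by edgeR's estimates, 6 of the 9 were higher in sgRFX6 and 3 lower. Their median log2 fold change was 0.125. The part of this list in the results below was not tested. The libraries were not alike within either group. In sgRFX6, library 3 stood apart from libraries 1 and 2 (chi-square per degree of freedom 99.3 and 124). Over the 37 tested members, this departure followed the GC content of the genes, as described below. In sgControl, library 2 stood apart from libraries 1 and 3 (89.7 and 72.3). Whether that departure followed GC content was not tested. Results are given without sgRFX6 library 3, or without another library, where it matters.

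Knockout cells carried less RNA of a small group of Wnt feedback genes. By edgeR's fitted fold changes, SP5 was 24.8-fold, NOTUM 10.2-fold, LGR5 5.69-fold and NKD1 3.40-fold lower, and the receptor FZD7 and the antagonist DKK1 were 1.94-fold and 1.82-fold lower. AXIN2, RNF43 and ZNRF3, which belong to the same kind of feedback genes, and beta-catenin itself (CTNNB1) had log2 fold changes between -0.36 and 0.18 and did not pass edgeR's test. Of the 54 members, 37 passed edgeR's filter on low counts and 17 did not. Among those tested, 6 had an adjusted p under 0.05, which is 16.2% of them, beside 3.74% of all 12839 genes tested. All 6 were lower in sgRFX6 and 0 were higher, beside 1.81% and 1.92% of all genes called in each direction. At an unadjusted p under 0.05 there were 15 of the 37 members, 4 of them higher in sgRFX6, beside 15.6% of all genes. DESeq2 called 11 members, 2 of them higher, beside 6.97% of all genes, and limma 20, 7 of them higher, beside 31.1% of all genes. The CPM of the groups did not overlap for 16 members (43.2% of those tested), 11 lower and 5 higher in sgRFX6, beside 23.1% of all genes. The median log2 fold change of the tested members was -0.06, close to that of all genes tested, 0.02. The absolute log2 fold change was under 0.5 for 20 members.

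**Figure D1:**
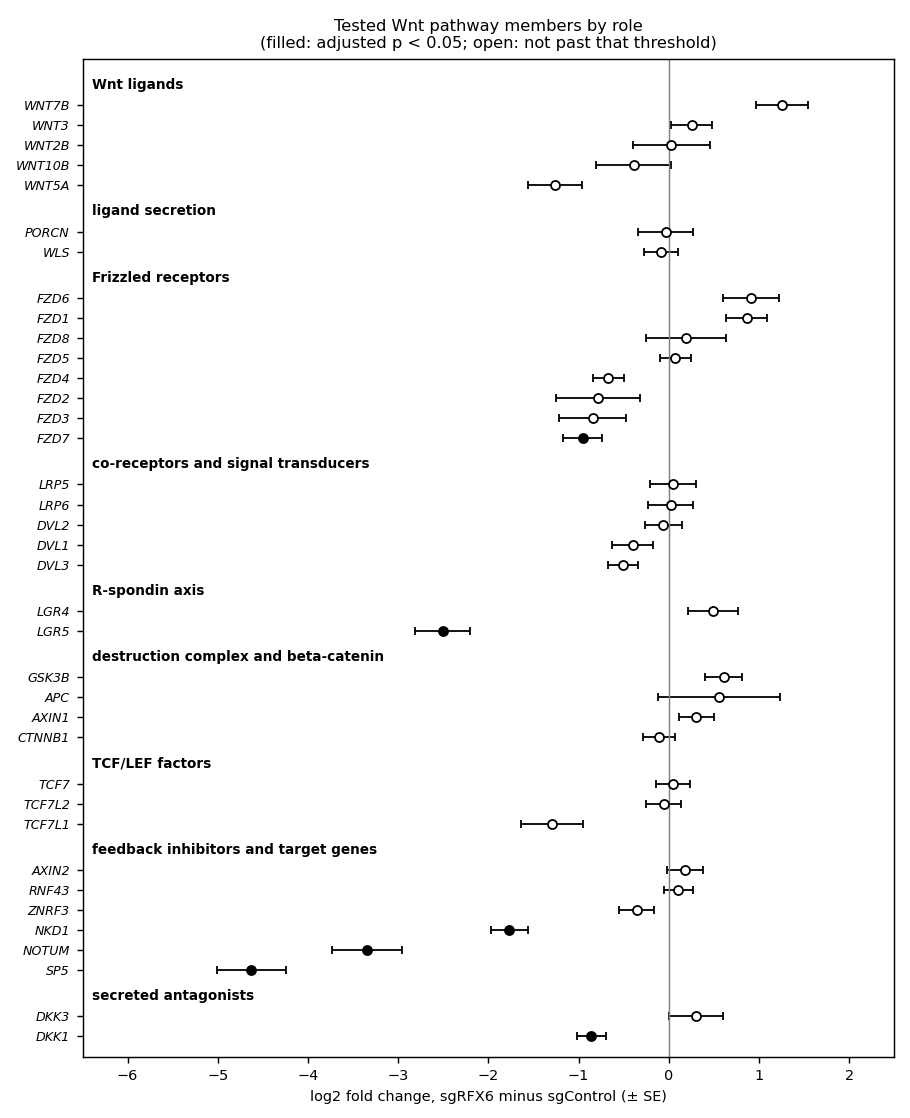
Log2 fold changes (sgRFX6 minus sgControl, points) with standard errors (bars) of the 37 tested members, grouped by role; filled points had an adjusted p under 0.05. The 6 filled points lie on the negative side, from FZD7 and DKK1 near -0.9 to SP5 at -4.63, and the other members lie between -1.29 and 1.26.

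Of the 14 WNT genes with a row, 5 were tested. EdgeR called 0 and gave 2, WNT5A and WNT7B, an unadjusted p under 0.05, and DESeq2 and limma each called both. WNT5A, a ligand best known for beta-catenin-independent signalling, had the highest level per length in sgControl, 8.07 CPM per kb of exons. It was measured at 76.8, 39.5 and 62.8 CPM in sgControl libraries 1 to 3 and at 25.3, 18.2 and 31.3 CPM in the sgRFX6 libraries. The groups did not overlap, with means of 59.7 ± 18.8 and 24.9 ± 6.57 CPM (SD, n = 3 each), but the log2 fold change of -1.26 (SE 0.30) missed the threshold (edgeR adjusted p = 0.0565). WNT7B, a ligand of epithelial cells that can signal through beta-catenin, took the opposite course. Its libraries held 15.8, 12.5 and 19.7 CPM in sgControl and 38.4, 50.2 and 26.1 CPM in sgRFX6. Every sgRFX6 library lay above every sgControl library, and the log2 fold change was 1.26 (SE 0.29, edgeR adjusted p = 0.0529). Without sgRFX6 library 3, WNT5A passed the threshold (log2 fold change -1.45, edgeR adjusted p = 0.036), as did WNT7B (1.48, edgeR adjusted p = 0.0154), and WNT5A also did without sgControl library 2 (-1.49, edgeR adjusted p = 0.0353). Over the 6 fits with a library left out, WNT5A passed in only 2 and WNT7B in only 1. In the others the edgeR adjusted p reached 0.211 for WNT5A and 0.155 for WNT7B. The ratio of WNT7B to WNT5A counts was 0.205, 0.317 and 0.313 in sgControl and 1.52, 2.76 and 0.833 in sgRFX6; this and the other ratios were chosen after the values were seen and are given without a test.

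Among the other ligands, WNT3 (8.50 to 9.97 CPM in sgControl, 10.03 to 12.2 in sgRFX6), WNT10B and WNT2B had log2 fold changes of 0.25, -0.39 and 0.03, and none passed the test. The remaining 9 WNT genes were under the filter. WNT4 held 9, 22 and 9 counts in the control and 2, 3 and 9 after knockout, WNT5B held 6, 12 and 7 and then 2, 5 and 1, and WNT11 held between 0 and 9 counts in any library. WNT3A, WNT8B, WNT9A, WNT9B, WNT10A and WNT16 never exceeded 3 counts, so that a difference was not detectable at this depth. Ligand secretion was measured through PORCN, the enzyme that attaches the lipid, and WLS, the carrier that brings Wnt proteins to the cell surface. WLS had 10.4 CPM per kb in sgControl, with 49.1, 46.0 and 45.03 CPM in sgControl libraries 1 to 3 against 52.4, 40.03 and 39.3 CPM after knockout. The groups overlapped for this gene (log2 fold change -0.09, 95% interval -0.52 to 0.34) and for PORCN (-0.04, -0.72 to 0.65).

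**Figure D2:**
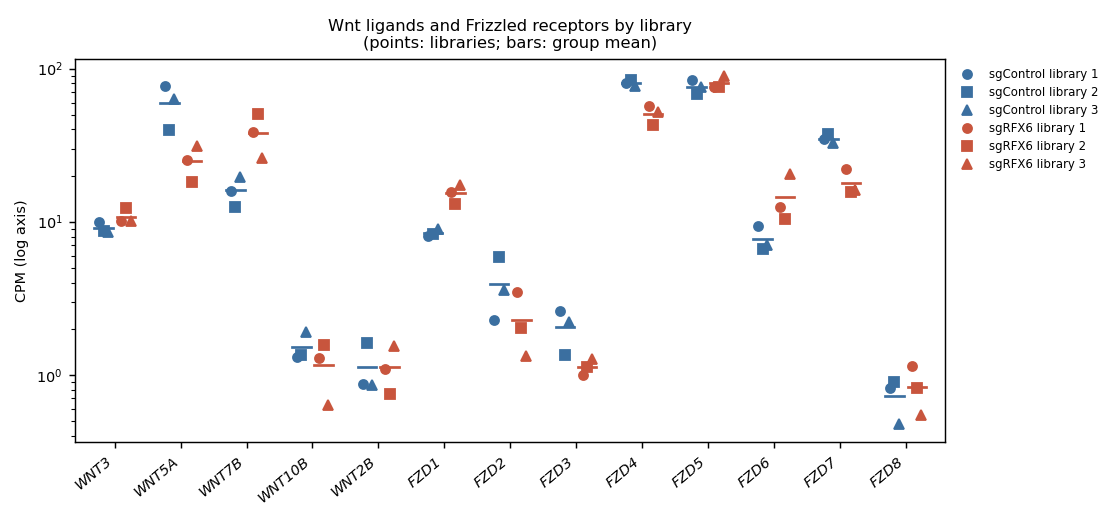
CPM on a log axis of the tested WNT and FZD genes in each library (points, shape by library number) with group means (bars), sgControl in blue and sgRFX6 in red. WNT5A, FZD3, FZD4 and FZD7 lie lower and WNT3, WNT7B, FZD1 and FZD6 higher in every sgRFX6 library, and of these only FZD7 had an edgeR adjusted p under 0.05 (0.049).

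Frizzled genes encode the 7-pass receptors of Wnt ligands, and 8 of the 9 with a row were tested. FZD5, at 11.4 CPM per kb in sgControl the highest of them per length, held 84.4, 68.5 and 75.5 CPM in sgControl and 75.2, 76.0 and 89.0 CPM in sgRFX6. The groups overlapped, and the log2 fold change was 0.07 (95% interval -0.31 to 0.45). FZD7, a receptor reported to be raised in many carcinomas, was measured at 34.5, 37.3 and 32.5 CPM in sgControl and at 22.0, 15.6 and 16.1 CPM in sgRFX6. All sgRFX6 libraries lay below all sgControl libraries, and the fall passed the threshold narrowly (log2 fold change -0.96, SE 0.22, edgeR adjusted p = 0.049). FZD7 lies on chromosome 2 (chr2:202034587-202038445, plus strand, GRCh38). Its call was lost when any library but sgRFX6 library 3 was left out (log2 fold changes -1.13 without sgRFX6 library 1, -0.88 without sgRFX6 library 2, -0.96, -0.91 and -0.98 without sgControl library 1, 2 or 3; edgeR adjusted p between 0.0835 and 0.161), and also when the median of its 50 nearest tested genes was removed (-0.87, adjusted p = 0.0806) or when at least 1 CPM in 3 libraries was required (-0.93, adjusted p = 0.0521).

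The other Frizzled genes did not pass edgeR's test, whereas DESeq2 called FZD1 and FZD4, and limma called FZD1, FZD3, FZD4 and FZD6. FZD4, which also serves norrin, was measured at 76.8 to 84.5 CPM in sgControl and 42.8 to 56.9 CPM in sgRFX6 (log2 fold change -0.67, edgeR adjusted p = 0.0816). FZD1 went from between 8.10 and 8.98 CPM to between 13.0 and 17.4 CPM (0.86, edgeR adjusted p = 0.0816), and FZD6, a receptor of planar polarity, from between 6.64 and 9.40 to between 10.4 and 20.3 CPM (0.91, edgeR adjusted p = 0.176; 0.58 without sgRFX6 library 3). FZD1, FZD4 and FZD6 had groups that did not overlap, as had FZD3 at 0.993 to 2.60 CPM. FZD2 and FZD8 overlapped, and FZD9, with counts of 0, 0 and 1 in sgControl against 2, 4 and 2 after knockout, was under the filter. The ratio of FZD1 to FZD4 counts was 0.101, 0.0977 and 0.117 in the sgControl libraries and 0.274, 0.304 and 0.337 in the sgRFX6 libraries.

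None of the 5 co-receptor and transducer genes was called by edgeR (1 at an unadjusted p under 0.05) or DESeq2, and limma called 3, LRP5, DVL1 and DVL3. LRP5, a co-receptor and at 72.9 CPM per kb in sgControl the highest of them per length, was measured at 359, 613 and 376 CPM in sgControl and 534, 505 and 352 CPM in sgRFX6. The groups overlapped widely (log2 fold change 0.05, 95% interval -0.54 to 0.63). LRP6 overlapped as well (0.02, and -0.31 without sgRFX6 library 3). The Dishevelled proteins carry the signal from the receptor to the destruction complex. DVL3 lay lower in every sgRFX6 library, 121 to 152 against 186 to 215 CPM, without passing the test (-0.51, edgeR adjusted p = 0.16), and DVL1 and DVL2 had log2 fold changes of -0.40 and -0.06.

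Within the destruction complex, 4 genes were tested and none was called by edgeR (1 at an unadjusted p under 0.05) or DESeq2, and limma called 2, AXIN1 and GSK3B. CTNNB1, which encodes beta-catenin, had 33.5 CPM per kb in sgControl, with 438, 333 and 429 CPM in its libraries against 378, 342 and 391 CPM in sgRFX6. These ranges overlapped, with a log2 fold change of -0.11 (95% interval -0.51 to 0.28). Since beta-catenin is controlled mainly as a protein, its RNA level does not measure pathway activity. GSK3B lay higher in every sgRFX6 library (73.6 to 104 against 45.9 to 62.6 CPM; 0.61, edgeR adjusted p = 0.174), although the nearest 50 tested genes on its chromosome had a median log2 fold change of 0.57 themselves. AXIN1 had a log2 fold change of 0.30. APC, the scaffold that is lost in most colorectal tumours, was measured at 13.1, 6.89 and 7.99 CPM in sgControl and at 5.51, 4.53 and 31.0 CPM in sgRFX6, so that sgRFX6 library 3 lay far above all others and libraries 1 and 2 below them. The log2 fold change of APC was 0.56 with sgRFX6 library 3 and -0.88 without it, and neither passed edgeR's test (adjusted p = 0.791 and 0.164).

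Of the TCF/LEF factors, which bind DNA and recruit beta-catenin, TCF7L2 had 6.06 CPM per kb in sgControl. It held 40.9, 43.3 and 38.3 CPM in sgControl and 46.2, 34.3 and 37.4 CPM in sgRFX6 (log2 fold change -0.06), and TCF7 was as close (0.05). TCF7L1, a member of this family that mostly represses, was measured at 3.85, 6.89 and 5.27 CPM in sgControl and 2.68, 2.26 and 1.59 CPM in sgRFX6. The groups did not overlap, and the log2 fold change of -1.29 (SE 0.34) did not pass edgeR's test (adjusted p = 0.0839). TCF7L1 was called lower by DESeq2 (adjusted p = 0.0188), by limma (adjusted p = 0.0071) and by edgeR with the GC trend removed (adjusted p = 0.0174). LEF1 held 0, 3 and 3 counts without knockout and 0 in each sgRFX6 library, at or under the floor in every library.

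LGR4, LGR5 and LGR6 are the receptors for R-spondins, which protect Frizzled receptors from removal by RNF43 and ZNRF3. LGR4 was at 10.2 CPM per kb in sgControl and held 75.0, 62.3 and 57.3 CPM there, against 77.2, 63.2 and 133 CPM in sgRFX6. The groups overlapped with sgRFX6 library 3 the highest, and the log2 fold change of 0.49 did not pass the test (edgeR adjusted p = 0.459; 0.12 without that library). LGR5, best known as the marker of intestinal stem cells and of Wnt-responsive hepatocytes, fell. It was measured at 32.0, 19.3 and 27.8 CPM in sgControl and at 3.58, 4.15 and 6.13 CPM in sgRFX6. The lowest sgControl library stood above the highest sgRFX6 library by a wide margin, and the log2 fold change was -2.51 (SE 0.31, edgeR adjusted p = 0.0034; mean 26.4 ± 6.45 against 4.62 ± 1.34 CPM, SD, n = 3 each). The gene lies at chr12:71439770-71586310 on the plus strand. Counts of LGR5 relative to LGR4 were 0.426, 0.310 and 0.485 in sgControl and 0.0463, 0.0656 and 0.0460 in sgRFX6. LGR6 and RSPO3 were under the filter, with at most 8 counts and 1 count in a library.

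The feedback genes split in their measured change: edgeR called SP5, NOTUM and NKD1 lower and did not call AXIN2, RNF43 and ZNRF3. SP5, a zinc finger factor induced by Wnt that competes with other SP factors at Wnt target promoters, lies at chr2:170715351-170718078 on the plus strand. Its promoter is shown because the gene is induced through TCF/LEF sites and because SP5 changed most among the members. The 250 bases before its RefSeq start (chr2:170715087-170715336, plus strand, GRCh38.p14) are printed with the TCF/LEF core TTTGAT, or ATCAAA on the other strand, in capitals.
SP5 promoter: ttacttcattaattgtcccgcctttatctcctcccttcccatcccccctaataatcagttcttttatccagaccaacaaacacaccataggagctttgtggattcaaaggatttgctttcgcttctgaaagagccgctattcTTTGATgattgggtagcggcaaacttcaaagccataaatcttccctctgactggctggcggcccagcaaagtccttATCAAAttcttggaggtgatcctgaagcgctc
The core occurred at 2 places, beginning 108 and 32 bases before the start. Over 35116 promoter windows of the same length, 8.45% held it at least once and 0.738% at 2 or more places. A match is only a run of letters and not a shown binding site. Neither GTTGCC nor its reverse complement GGCAAC, the core of the motif of RFX factors, occurred in this window, against 10.2% of all windows. Of the 54 members, 40 had a promoter entry, and 3 of them (SP5, TCF7L2 and WNT8B) held the TCF/LEF core and 2 (RNF43 and WNT5B) the RFX motif core. The promoters of NKD1, NOTUM, LGR5 and FZD7 were not searched. Nor were those of AXIN2, ZNRF3, WNT7B, LRP6, DKK3, FZD2, FZD3, FZD6, WNT10B and WNT11.

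SP5 was measured at 5.45, 5.31 and 7.73 CPM in sgControl, from 113, 131 and 179 counts, and at 0.199, 0.314 and 0.227 CPM in sgRFX6, from 4, 5 and 5 counts. Every sgRFX6 library was far below every sgControl library and only just above the floor. The log2 fold change was -4.63 (SE 0.38, edgeR adjusted p = 0.000801). NOTUM, a secreted carboxylesterase that removes the lipid from Wnt ligands, held 24.7, 55.6 and 32.1 CPM in sgControl and 5.02, 2.70 and 3.27 CPM in sgRFX6. The sgControl libraries differed among themselves, library 2 being the highest, but all lay well above the sgRFX6 libraries (log2 fold change -3.35, SE 0.39, edgeR adjusted p = 0.00279). NOTUM lies at chr17:81952507-81961840 on the minus strand.

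NKD1, an intracellular inhibitor that binds Dishevelled, lies at chr16:50548330-50649249 on the plus strand. It was measured at 178, 221 and 189 CPM in sgControl and at 73.3, 49.2 and 50.2 CPM in sgRFX6 (mean 196 ± 22.2 against 57.6 ± 13.6 CPM, SD, n = 3 each). The groups were clearly apart, and the log2 fold change was -1.77 (SE 0.21, edgeR adjusted p = 0.00294). SP5, NOTUM, NKD1 and LGR5 were called lower in each of 15 alternative fits, leaving out each library included, with edgeR, DESeq2 or limma adjusted p of at most 0.0246. Exons of LGR5, NKD1 and DKK1 overlap an antisense gene on the opposite strand, and without knowledge of the strand setting reads of the partners cannot be told apart; none of the 9 members given with full statistics overlaps exons of another protein-coding gene.

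AXIN2, a scaffold of the destruction complex and the most widely used Wnt target, had the highest level per length of the feedback genes, 28.8 CPM per kb in sgControl. It held 154, 118 and 181 CPM in sgControl and 172, 190 and 150 CPM in sgRFX6. The groups overlapped, and the log2 fold change of 0.18 had a 95% interval from -0.27 to 0.63, which does not reach the changes of SP5, NOTUM, NKD1 or LGR5. RNF43, a ubiquitin ligase that removes Frizzled receptors, was measured at 158, 194 and 165 CPM in sgControl and 201, 178 and 175 CPM in sgRFX6. Here too the groups overlapped (log2 fold change 0.10, 95% interval -0.26 to 0.47). Its paralogue ZNRF3 lay between 44.4 and 60.8 CPM in sgControl and between 38.0 and 46.4 CPM in sgRFX6 (-0.36, edgeR adjusted p = 0.441) and was called lower by limma (-0.55, adjusted p = 0.00574) but under no other alternative. Within libraries, the ratio of NKD1 to RNF43 counts was 1.13, 1.14 and 1.14 in sgControl and 0.364, 0.276 and 0.287 in sgRFX6. NKD2, the paralogue of NKD1, held 1 to 9 counts and was under the filter.

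**Figure D3:**
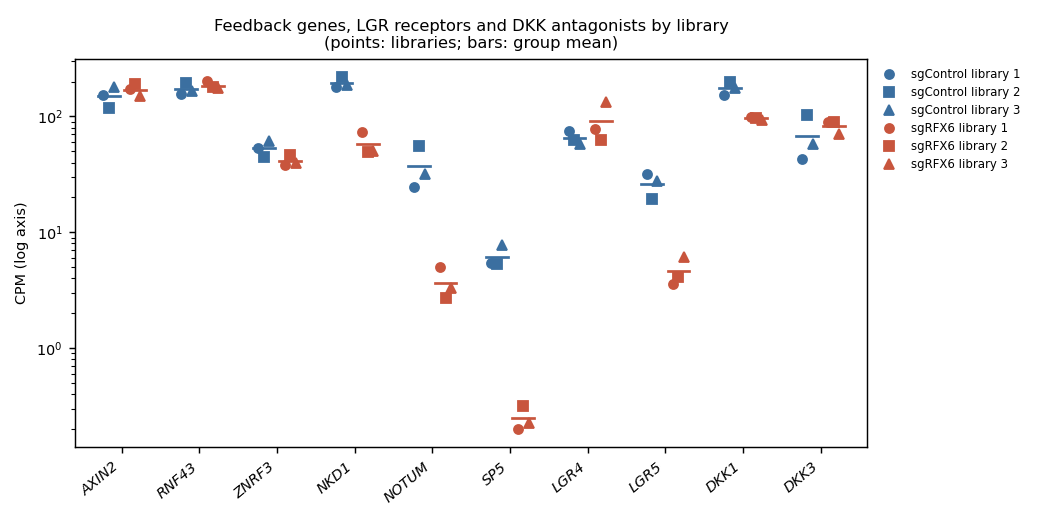
CPM on a log axis of feedback genes, LGR receptors and DKK antagonists in each library (points, shape by library number) with group means (bars), sgControl in blue and sgRFX6 in red. The groups are separated for NKD1, NOTUM, SP5, LGR5 and DKK1, whereas those of AXIN2, RNF43, ZNRF3, LGR4 and DKK3 overlap.

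Secreted antagonists were represented by DKK1 and DKK3, and SFRP4, SFRP5 and WIF1 never exceeded 5 counts. DKK1 blocks LRP5 and LRP6 and is itself a Wnt target that is often raised in hepatocellular carcinoma. It lies at chr10:52314296-52318042 on the plus strand and had 79.2 CPM per kb in sgControl. The 250 bases before its RefSeq start (chr10:52314031-52314280, plus strand, GRCh38.p14) are shown for comparison with SP5.
DKK1 promoter: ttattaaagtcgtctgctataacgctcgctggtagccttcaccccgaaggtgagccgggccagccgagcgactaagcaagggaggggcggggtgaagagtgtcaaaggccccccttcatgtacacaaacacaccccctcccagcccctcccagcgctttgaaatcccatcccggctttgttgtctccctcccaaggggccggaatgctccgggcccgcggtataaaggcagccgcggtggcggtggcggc
Neither the TCF/LEF core nor the RFX motif core occurred in these letters. DKK1 was measured at 152, 197 and 175 CPM in sgControl and at 99.04, 96.1 and 93.3 CPM in sgRFX6. The sgRFX6 libraries lay close together below all sgControl libraries (log2 fold change -0.86, SE 0.16, edgeR adjusted p = 0.0219). The call was lost without sgControl library 2 (-0.77, edgeR adjusted p = 0.0584), sgControl library 3 (-0.84, 0.108), sgRFX6 library 1 (-0.88, 0.107) or sgRFX6 library 2 (-0.87, 0.0768), and with the median of the 50 nearest tested genes removed (-0.71, 0.0543). DKK3, whose action on Wnt signalling is less clear, had overlapping groups (0.30).

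Genes of the pathway outside this set were followed in 4 lists with 125 rows, of which 110 were tested. Of these 110, edgeR called 9, 2 higher and 7 lower, beside 3.74% of all genes tested (1.92% higher and 1.81% lower). The median log2 fold change of the 110 was -0.13, beside 0.02 for all genes tested. DESeq2 called 18 and limma 38 genes of these lists, beside 6.97% and 31.1% of all genes. The edgeR calls in each list below also stand beside 3.74% of all genes. Among 32 tested beta-catenin targets of liver and intestine, MMP7 rose and TNFRSF19 and CEMIP fell. MMP7, a matrix metalloprotease, was measured at 14.8, 10.8 and 19.2 CPM in sgControl and 82.2, 103 and 118 CPM in sgRFX6, a rise in each knockout library (log2 fold change 2.76, edgeR adjusted p = 0.00123). TNFRSF19, a receptor of the TNF family known as a Wnt target in stem cells, went from 18.9, 21.7 and 20.5 CPM to 0.248, 0.251 and 0.227 CPM, with 4 or 5 counts left in each sgRFX6 library (-6.36, edgeR adjusted p = 8.84e-05). CEMIP, a hyaluronan-binding protein, had means of 146 and 71.7 CPM (-1.02, edgeR adjusted p = 0.0131). The best known targets MYC, CCND1 and GLUL, the last a marker of pericentral hepatocytes, had log2 fold changes of -0.39, -0.25 and -0.22 and did not pass the test.

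Among 15 tested extracellular modulators, SOST and SHISA2 fell and SULF2 rose. SOST, which encodes the LRP5/6 antagonist sclerostin, was measured at 64.5, 105 and 38.5 CPM in sgControl and at 2.63, 1.13 and 1.91 CPM in sgRFX6 (log2 fold change -5.18, edgeR adjusted p = 0.00107). SHISA2, which holds back Frizzled maturation, had means of 10.1 and 3.24 CPM (-1.63, edgeR adjusted p = 0.00868), and SULF2, a sulfatase that trims heparan sulfate, of 18.1 and 54.9 CPM (1.60, edgeR adjusted p = 0.012). Of 23 tested genes of non-canonical signalling and planar polarity, the core polarity genes PRICKLE1 (means 6.35 and 1.04 CPM; -2.61, edgeR adjusted p = 0.0043) and PRICKLE2 (10.2 and 3.78 CPM; -1.42, edgeR adjusted p = 0.0275) fell. Of 40 tested genes of the intracellular machinery, only DACT2, a Dishevelled-binding protein, was called by edgeR, with counts of 10, 47 and 31 in sgControl against 2, 2 and 3 in sgRFX6 (-3.31, edgeR adjusted p = 0.0252), and 33 had an absolute log2 fold change under 0.5. Several of these calls were lost when a library was left out (edgeR adjusted p, given as the highest value). CEMIP and SULF2 were lost without sgControl library 3 or sgRFX6 library 1, with adjusted p of up to 0.0745 and 0.0679 (log2 fold changes of CEMIP -0.92 and -1.05, of SULF2 1.51 and 1.53), and SHISA2 without sgControl library 3 (-1.53, adjusted p = 0.0643). PRICKLE2 was lost without any sgControl library or without sgRFX6 library 2 (-1.47 to -1.29, adjusted p up to 0.0962), and DACT2 without any library but sgControl library 1 (-3.42 to -2.87, adjusted p up to 0.109).

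**Figure D4:**
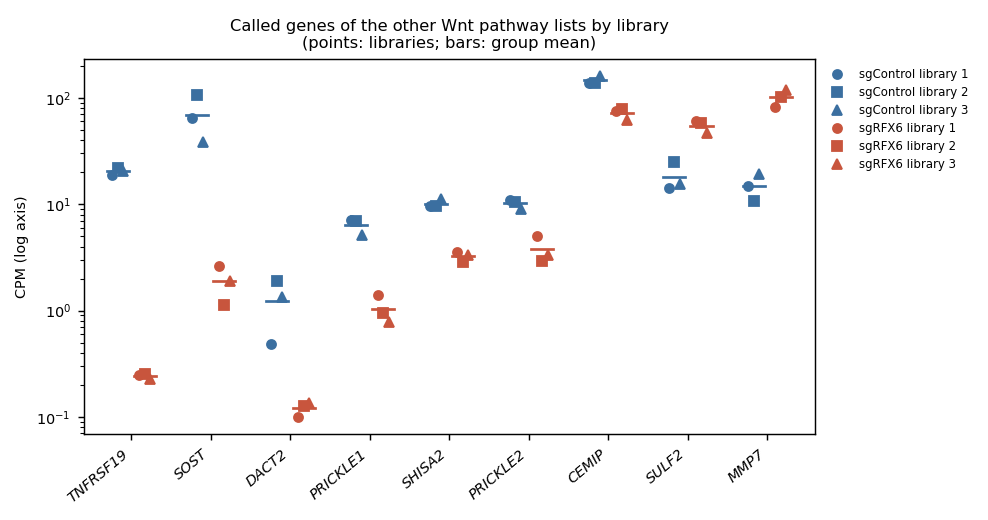
CPM on a log axis of the 9 called genes of the other Wnt pathway lists in each library (points, shape by library number) with group means (bars), sgControl in blue and sgRFX6 in red. TNFRSF19 and SOST show the widest gaps on the lower side, and SULF2 and MMP7 are the genes that lie higher in every sgRFX6 library.

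Markers of other cell types were measured as well. Of 7 fibroblast and stellate cell markers, 5 were tested, 4 with a negative and 1 with a positive log2 fold change (0.63). COL1A1 (log2 fold change -2.08, edgeR adjusted p = 0.0108), COL1A2 (-3.71, edgeR adjusted p = 0.00276) and PDGFRA (-4.43, edgeR adjusted p = 0.012) were called lower. Of all genes tested, edgeR called 3.74%, and 1.81% were called lower. The summed level of the list lay between 27.7 and 34.6 CPM in sgControl and between 21.4 and 56.2 CPM in sgRFX6. The highest sum was that of sgRFX6 library 3, and none of the genes was at 0 in all libraries. Of biliary, endothelial and leukocyte markers, 7 were tested and 0 were called by edgeR, with KRT7 at an unadjusted p under 0.05; DESeq2 called KRT7 and limma KRT7 and PECAM1. Summed levels in sgControl and sgRFX6 were 601 to 972 and 409 to 753 CPM for the biliary list, 11.7 to 13.7 and 13.4 to 19.8 CPM for the endothelial list, and 73.6 to 159 and 62.7 to 101 CPM for the leukocyte list. All libraries are labelled as Hep3B, a cell line, so that these levels are not read as numbers of other cell types. Whether fewer cells of the line held these RNAs or each cell held less cannot be told apart in a bulk sample. The part of these genes in the result was not tested.

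Within sgRFX6, the departure of library 3 from libraries 1 and 2 followed GC content over the 37 tested members (Pearson's r = -0.77, Spearman's rho = -0.87, a description over genes that share the same libraries). Of 11 members with less than 45% GC in their longest transcript, 10 were higher in library 3, and all 13 with more than 55% GC were lower. APC, LGR4, LRP6 and FZD6 were among the former. The log2 fold change of the members followed GC content less closely (r = -0.26). Without sgRFX6 library 3, 8 members were called by edgeR, beside 5.52% of all genes: the same 6, WNT5A on the lower side and WNT7B on the higher side. With the GC trend of each library removed, 14 were called by edgeR, 10 lower and 4 higher (FZD1, FZD6, WNT7B and GSK3B), beside 10.8% of all genes.

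**Figure D5:**
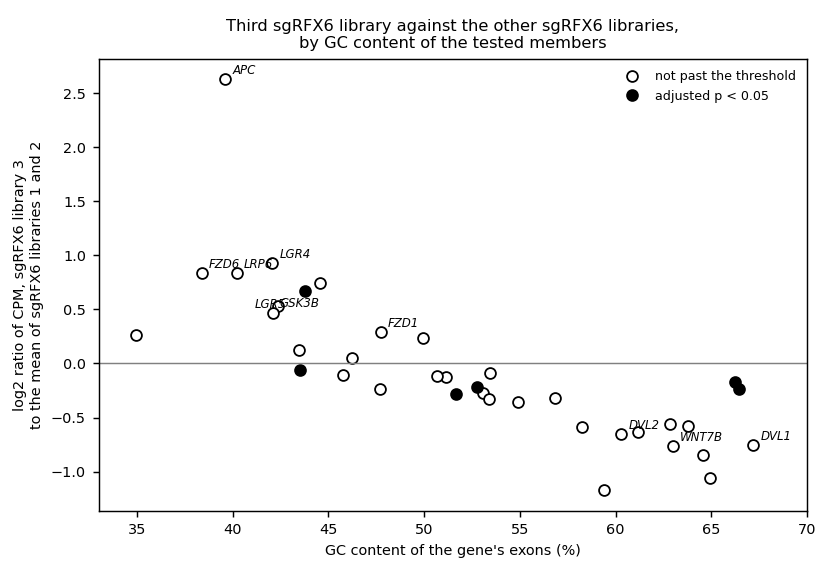
GC content (%) of the longest transcript of each tested member (named on the axis as its exons) against the log2 ratio of its CPM in sgRFX6 library 3 to the mean of sgRFX6 libraries 1 and 2. Filled points had an edgeR adjusted p under 0.05 in the comparison of the groups. Members under 45% GC lie mostly above 0, with APC highest, and all members over 55% GC lie below 0.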

How the data were processed

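RNA-sequencing counts of 3 sgControl and 3 sgRFX6 Hep3B libraries were used. The authors deposited 1 table of raw counts per gene, without normalisation; the submitters' processing notes name the builds GRCh38 and hg38, and the aligner, counter, strand setting and annotation are not given in the sources used here. The control columns are named cas and were taken as sgControl, the only control group. A row without a gene name (at most 9.17e-05% of a library's counts) was left out.

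The counts were tested with edgeR 4.0.16 (R 4.3.3; filterByExpr with a minimum count of 10 and a minimum total of 15, TMM, quasi-likelihood test, no covariates, Benjamini-Hochberg adjustment over 12839 genes, threshold 0.05). CPM are TMM-scaled. Two-sided exact permutation tests of single genes cannot go below p = 0.1 with 3 against 3 libraries and are not quoted. Positions, exon lengths and GC content, the last from the longest transcript of each gene, came from GENCODE 29 on GRCh38. Of 16721 rows, 15422 were matched by name, 256 by another symbol and 1043 were not matched. Promoters came from RefSeq GRCh38.p14. Full statistics are given for members with an adjusted p under 0.05 or with an absolute log2 fold change of at least 1 and groups that do not overlap, and library values also for the member of each role with the highest CPM per kb. Members, lists and tests were chosen with earlier results of these data known. Replicates differed beyond sampling noise (chi-square per degree of freedom 17.0 to 124). Floors cover counting error only, since PCR reads are not independent molecules. Scripts were tested on simulated counts.

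The fit was repeated with DESeq2 1.42.0, with limma 3.58.1 voom and quality weights, with RLE factors or the library size alone as scaling, without a filter, with at least 1 CPM in 3 libraries, with the replicate number as a block, after removal of a GC trend (span 0.3) or of the median of the nearest 50 tested genes, and with each library left out.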

Additional observations from a re-analysis of the deposited data

How the results depend on the processing

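SP5, NOTUM, LGR5 and NKD1 were called lower under each of the 15 alternatives. Under the GC correction, DESeq2 and limma-voom with quality weights, respectively, 14, 11 and 20 members were called (10, 9 and 13 lower; 4, 2 and 7 higher), as were 1390, 895 and 3998 of all genes and 19, 18 and 38 genes of the other pathway lists; RFX6 passed the threshold under the first (-0.85, adjusted p = 0.0489) and the last (-0.96, adjusted p = 0.00274). WNT7B was the 1 member called higher with the filter at 1 CPM, with the neighbourhood median removed, without the filter and with the replicate block. Leaving out each library gave 4 to 8 members (0 to 1 higher, 4 to 7 lower), 212 to 718 genes in all, 4 to 12 genes of the other lists and RFX6 values of -0.89 to -0.67. The count of all genes was 306 and 212 without sgControl library 1 or 3, 216 and 303 without sgRFX6 library 1 or 2 and 718 without sgRFX6 library 3, and that of the other lists was 4 without sgControl library 3; fewer libraries entered these fits, and the cause was not otherwise tested. Same-numbered libraries did not deviate together (correlations -0.41, 0.17 and -0.09), and not every library correlated best with its own number, so the numbers are not taken as pairs. The replicate block gave 648 genes in all and 7 members, FZD7 being lost (adjusted p = 0.0539) and WNT5A and WNT7B gained. Of 389 values of 26 named genes under the alternatives, 330 stayed on their side of the threshold, 32 came to pass it, 27 no longer passed it and 0 changed direction. Of the 37 tested members, 13 changed direction under at least 1 alternative (FZD5, FZD8, WNT2B, LRP5, LRP6, DVL2, AXIN1, APC, TCF7, TCF7L2, DKK3, PORCN and WLS), none of them called by edgeR in the main comparison. The median of the members stayed between -0.19 and -0.03. For genes at or under the floor of 3 counts in every library, a difference was not detectable at this depth.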
